A study of Mus musculus with 2 samples.

Results

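The genes described here are the 10 members of 3 families of postsynaptic scaffold proteins: Dlg1, Dlg2, Dlg3, Dlg4, Shank1, Shank2, Shank3, Homer1, Homer2 and Homer3. They were chosen by name from the 21938 protein-coding genes of the GENCODE M21 mouse annotation. For each gene, DNase-seq peaks and footprints were counted at every annotated transcription start site (TSS) and over the gene body with 10 kb on either side. DNase-seq sequences the ends left by DNase I, an enzyme that cuts DNA where nucleosomes or bound proteins do not cover it. A peak is a stretch of accessible DNA, and a footprint is a short protected stretch within it. The tissue was hippocampus of female B6CASTF1/J mice aged 2 months, first-generation hybrids between C57BL/6J and CAST/EiJ. The series holds 1 group of 2 libraries, biological replicates 1 and 2, and no second condition. Both libraries carry 1 donor record but separate biosample records, so the spread between them may be technical. One label calls the tissue a layer of the hippocampus, and the dissected layer is not named in the labels.

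The excitatory synapse carries a protein-dense layer under the postsynaptic membrane. There, Dlg proteins, a subgroup of the membrane-associated guanylate kinases, bind the tails of glutamate receptors and ion channels through PDZ domains. Shank proteins lie deeper and link the Dlg complex, through its adaptor proteins, to Homer and to the actin skeleton. Homer proteins bind group I metabotropic glutamate receptors and Shank, and assemble through a coiled coil. Several of these genes use more than 1 promoter and so make proteins with different amino ends.

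The peak value is the signal the authors deposited for each peak, a linear quantity scaled to the library on a scale that is not given. Replicate 1 had 129779 peaks with a median value of 0.699, and replicate 2 had 71895 peaks with a median of 0.867. The sources used here give no read depth. In a bulk tissue a low value can come from fewer open cells or from less access per cell, and these cannot be told apart. Among marker genes, a peak within 1 kb of a TSS in both libraries was found for 6 of 6 general neuronal and 7 of 7 hippocampal neuron genes. The counts were 4 of 5 for astrocytes, 2 of 5 for oligodendrocytes, 1 of 5 for microglia and 1 of 4 for endothelial cells. Of genes that mark other organs, 2 of 4 liver genes and 1 of 3 muscle genes had such a peak. Over all protein-coding genes the share was 60.3%. The mean highest TSS value over the 6 neuronal genes ranged from 1.45 to 4.46, against 0 to 1.22 for the muscle and 0 to 0.999 for the liver genes. Ranges of the other brain cells reached from 0.239 to 3.91 for astrocytes, 0 to 1.44 for oligodendrocytes, 0.248 to 1.65 for microglia and 0 to 1.01 for endothelial cells. Those of astrocytes and microglia thus overlapped the neuronal range. That of oligodendrocytes was not separate from it either. Its highest gene, Olig1 (1.56 in replicate 1 and 1.33 in replicate 2), overlapped the lowest neuronal gene, Stmn2 (1.74 and 1.16). The part that these other cells play in the values of the scaffold genes was not tested.

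The accessible sequences that carried the results below are printed first, from the RefSeq GRCm38.p6 assembly (mm10), plus strand, 5′ to 3′. All these genes are transcribed from the plus strand. Capitals mark bases that lie in a footprint of both libraries, and annotated untranslated bases were left out. The first 2 are the strongest TSS peaks of the set, at the start of Dlg2 (chr7:90476002-90476187) and of Homer1 (chr13:93303561-93303756).
Dlg2: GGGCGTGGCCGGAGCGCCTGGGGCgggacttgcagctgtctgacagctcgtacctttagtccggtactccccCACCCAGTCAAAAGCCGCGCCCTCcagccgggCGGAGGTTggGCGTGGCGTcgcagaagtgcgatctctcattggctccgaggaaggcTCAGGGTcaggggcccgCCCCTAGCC
Homer1: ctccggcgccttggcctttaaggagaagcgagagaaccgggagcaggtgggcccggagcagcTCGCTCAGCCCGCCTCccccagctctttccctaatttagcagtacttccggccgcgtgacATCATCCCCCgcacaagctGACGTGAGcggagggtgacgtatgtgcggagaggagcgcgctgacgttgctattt
The next is the strongest peak away from any start site, in an intron of Dlg4 (chr11:70021441-70021740).
Dlg4: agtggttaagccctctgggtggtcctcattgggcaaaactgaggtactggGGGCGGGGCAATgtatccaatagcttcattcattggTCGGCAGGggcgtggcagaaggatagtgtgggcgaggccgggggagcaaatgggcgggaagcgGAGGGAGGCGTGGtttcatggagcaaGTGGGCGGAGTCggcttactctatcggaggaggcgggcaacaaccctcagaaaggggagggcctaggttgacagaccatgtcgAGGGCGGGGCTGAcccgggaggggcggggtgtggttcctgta
The last 3 show how differently built the Shank sites are: a CpG-rich site 5.04 kb before Shank1 (chr7:44304861-44305160), the most 3′ start of Shank2 (chr7:144417641-144417900) and a site before the first start of Shank3 (chr15:89498681-89498920).
Shank1: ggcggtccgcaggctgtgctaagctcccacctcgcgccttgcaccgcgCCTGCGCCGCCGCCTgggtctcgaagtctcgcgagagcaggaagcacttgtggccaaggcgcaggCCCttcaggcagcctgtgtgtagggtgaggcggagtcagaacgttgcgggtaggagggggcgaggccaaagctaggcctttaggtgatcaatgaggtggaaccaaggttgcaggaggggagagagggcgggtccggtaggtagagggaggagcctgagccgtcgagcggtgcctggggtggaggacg
Shank2: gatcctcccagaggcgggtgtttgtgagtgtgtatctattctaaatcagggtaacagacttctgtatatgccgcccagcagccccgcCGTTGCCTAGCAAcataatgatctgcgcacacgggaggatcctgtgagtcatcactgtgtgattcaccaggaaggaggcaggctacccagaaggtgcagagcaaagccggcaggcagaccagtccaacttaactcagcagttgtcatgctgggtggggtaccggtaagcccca
Shank3: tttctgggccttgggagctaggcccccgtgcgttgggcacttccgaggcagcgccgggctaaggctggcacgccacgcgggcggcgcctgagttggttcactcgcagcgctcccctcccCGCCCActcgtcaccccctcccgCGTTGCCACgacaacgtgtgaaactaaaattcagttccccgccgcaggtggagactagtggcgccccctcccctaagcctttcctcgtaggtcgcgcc
The Shank1 site was chosen for printing after its values were seen.

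An accessible start site in both libraries was the rule for these genes. A peak lay within 1 kb of at least 1 TSS in all 10 genes in replicate 1 and in 9 in replicate 2. Homer2 was the gene without one in replicate 2. Over all 21938 protein-coding genes, 60.3% had such a peak in both libraries, 64.9% in replicate 1 and 61.6% in replicate 2. The median over the members of the mean highest TSS value was 2.3, against 1.27 over all protein-coding genes, which include those with no peak. Among genes with a peak in both libraries, the medians were 2.31 over 9 members and 3.1 over 13218 genes. The members' median was thus below that of accessible genes, but 4 of the 9, Dlg2, Homer1, Shank2 and Dlg4, lay above it. Dlg2 did so through a peak that also lies at a start of Tmem126b, and had a mean of 1.52 without it. Dlg4 did so narrowly, with a mean of 3.13 from 4.26 in replicate 1 and 2 in replicate 2. The members have more TSS groups per gene than protein-coding genes do on average, which gives more places where a peak can fall, so their share is read against the count per TSS group below. The order of the genes by their mean highest TSS value was Dlg2, Homer1, Shank2, Dlg4, Shank3, Shank1, Homer3, Dlg1, Dlg3 and Homer2. The values of the 2 libraries overlapped between neighbours from Shank2 down to Homer3, so that this middle of the order is not resolved. They stood apart at the other 5 steps between neighbours. Genes further apart in the order were not all separate: Shank1 in replicate 2 and Dlg1 in replicate 1 both had 1.82. Without the peak shared with Tmem126b, the mean of Dlg2 would place it between Dlg1 and Dlg3. That place is not resolved: its values, 1.8 and 1.25, overlap those of Dlg1 (1.82 and 1.6) and of Dlg3 (1.42 and 1.01). The design has 2 libraries of 1 group, so no test was made and these levels are descriptions.

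The 10 genes have 58 TSS groups, counting starts within 500 bp of each other as 1 group. Of these, 20 had a peak in both libraries (34.5%, 95% Wilson interval 23.6% to 47.3%), 8 in replicate 1 alone, 0 in replicate 2 alone and 30 in neither. The share over all 52546 TSS groups of protein-coding genes was 33%. The first group of a gene was accessible in 7 of 10 members (background 55.5%) and a later group in 13 of 48, or 27.1% (background 16.9%). Groups with a protein-coding transcript were accessible in 16 of 31 cases, 51.6% (background 44.5%), and groups with noncoding transcripts alone in 4 of 27, 14.8% (background 11.7%). The median ratio of observed to expected CpG dinucleotides was 0.429 at the groups with peaks in both libraries and 0.298 at the others. Intervals on shares cover counting error only, and neighbouring groups can share a peak.

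**Figure D1:**
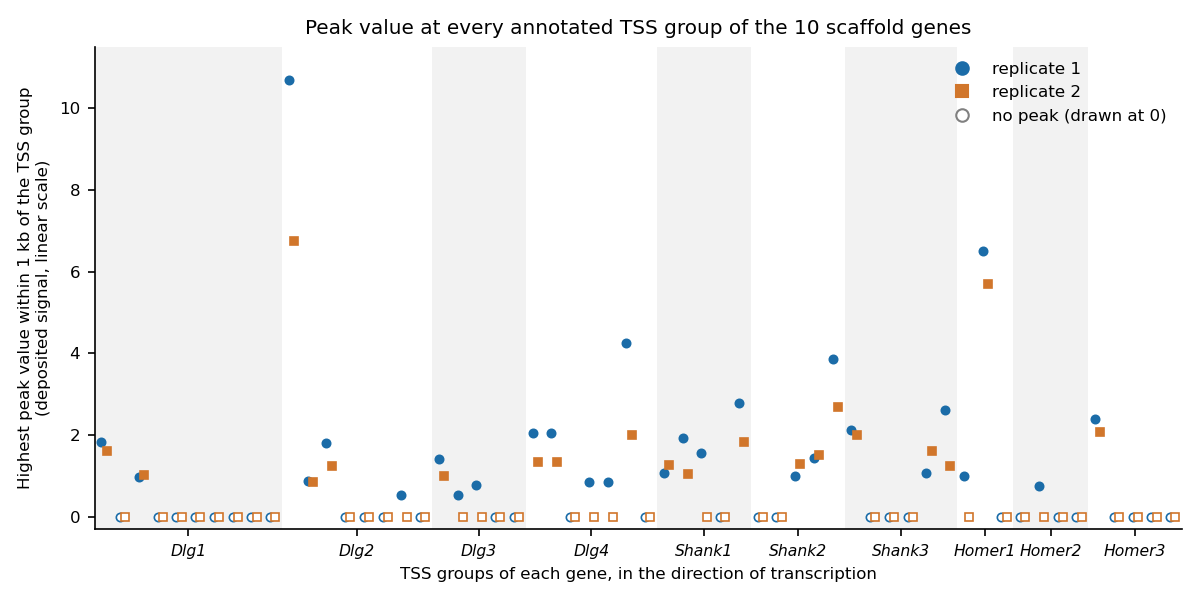
Highest peak value within 1 kb of each of the 58 TSS groups (deposited signal, linear axis), with circles for replicate 1 and squares for replicate 2; open symbols at 0 mean that no peak was listed. Dlg2 (10.7 and 6.75) and Homer1 (6.5 and 5.71) stand above all other groups, and 30 groups have no peak in either library.

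Dlg2 encodes PSD-93, a Dlg scaffold of neuronal membranes. Its first TSS group held the highest value of the set, 10.7 in replicate 1 and 6.75 in replicate 2 (mean 8.72 ± 2.79, SD, n = 2), which was above 96.1% of the genes accessible in both libraries. The 280 bp region (chr7:90475961-90476240) held 5 footprints in replicate 1 and 6 in replicate 2, of which 4 overlapped. Both libraries placed their strongest peak of the gene there, replicate 1 higher. This peak is shared with a neighbour. Its middle lay 571 bp before the nearest GENCODE start of Dlg2, 87 bp before a RefSeq start of Dlg2 and 100 bp from a start of Tmem126b, a mitochondrial complex I assembly gene. Whether the access belongs to Dlg2, to Tmem126b or to both cannot be told apart from these data. A further reading, added after the values were seen, left out peaks nearer to another gene by GENCODE starts. By the RefSeq start of Dlg2, 87 bp away, the peak left out is nearer to Dlg2 than to Tmem126b. Without it, the highest TSS value of Dlg2 was 1.8 in replicate 1 and 1.25 in replicate 2 (mean 1.52 ± 0.387, SD, n = 2). That value came from the third group, 1196 kb into the gene, the start of a transcript with a retained intron. The second group, 614 kb into the gene, starts 2 coding transcripts and had highest values of 0.884 and 0.856, at different peaks. The region before these starts had 0.884 in replicate 1 and 0.743 in replicate 2, and the region over them had 0.592 and 0.856. The coding starts at 1235 kb and 1586 kb had no peak within 1 kb in either library. A shared region just outside that window (chr7:91709961-91710180), its middle 1349 bp before the start at 1235 kb, had 2.11 in replicate 1 and 1.55 in replicate 2.

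Dlg4 encodes PSD-95, the most studied scaffold of the excitatory synapse. Its strongest TSS group, the sixth of 7, had 4.26 in replicate 1 and 2 in replicate 2 (mean 3.13 ± 1.6, SD, n = 2) and starts 6 coding transcripts. Replicate 1 was more than double replicate 2 here, the widest relative spread among the highest TSS values of the 9 members with a peak in both. The first and second groups share 1 peak with 2.04 and 1.35. Groups 4 and 5 share a peak of 0.849 that was listed in replicate 1 alone, and groups 3 and 7 had none. The strongest site of the gene was none of these: an intronic region (chr11:70021381-70021760), 2349 bp before the nearest start, had 8.52 in replicate 1 and 5.72 in replicate 2 (mean 7.12 ± 1.99, SD, n = 2). Both libraries put it above every TSS peak of Dlg4. It exceeded 99.8% of the 39196 regions of the series that were shared by both libraries and lay away from protein-coding starts. It held 19 CpG dinucleotides, 8 footprints in replicate 1 and 6 in replicate 2, of which 5 overlapped. No GENCODE or RefSeq start lay within 1 kb of it. The printed sequence holds 5 copies of the GC box GGGCGG, and 3 of them lie wholly within footprints of both libraries.

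Dlg1 encodes SAP97, a Dlg protein found in many tissues. Its first TSS group, which starts 5 coding transcripts, had 1.82 in replicate 1 and 1.6 in replicate 2 (mean 1.71 ± 0.157, SD, n = 2), above 25.7% of accessible genes. The third group, a coding start 90.9 kb downstream, had 0.973 and 1.02, level in both libraries. The other 8 groups of Dlg1, most of them noncoding, had no peak in either. A region after the gene (chr16:31876441-31876660), 9069 bp from the nearest start of Dlg1, had 2.85 in replicate 1 and 0.97 in replicate 2 (mean 1.91 ± 1.33, SD, n = 2). This region lies nearer to the start region of Meltf (chr16:31878665-31878821) than to any start of Dlg1, and which gene it serves was not tested. It was above the TSS peak in replicate 1 and below it in replicate 2. The printed part of the first start (chr16:31663741-31663908) carries 1 footprint of both libraries.
Dlg1: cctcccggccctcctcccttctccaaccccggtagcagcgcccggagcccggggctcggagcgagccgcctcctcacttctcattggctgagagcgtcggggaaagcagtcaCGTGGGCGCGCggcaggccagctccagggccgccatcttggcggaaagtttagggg

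Dlg3 encodes SAP102, a Dlg protein abundant in young neurons, on the X chromosome. Its first TSS group had 1.42 in replicate 1 and 1.01 in replicate 2 (mean 1.22 ± 0.292, SD, n = 2), the lowest among the members with a peak in both libraries. Groups 2 and 3 had 0.539 and 0.787 in replicate 1 and no peak in replicate 2. The 1 shared region away from starts (chrX:100769436-100769609), in an intron, had 0.628 and 0.547. The weak internal starts were thus seen in the library with more peaks and not in the other.

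Shank2 had its strongest TSS peak at the end of the gene, not at the beginning. The fifth group, 416 kb downstream of the first and the start of a noncoding transcript, had 3.86 in replicate 1 and 2.68 in replicate 2 (mean 3.27 ± 0.836, SD, n = 2). The first and second groups, which each start 1 coding transcript, had no peak and no base under the deposited false discovery rate (FDR) of 0.05 in either library. Group 3 had 1.01 and 1.3, and group 4, which starts 2 coding transcripts, had 1.45 and 1.51. At these 2 internal coding starts replicate 2 was the higher library, unlike at the fifth group. The footprint shared by both libraries at the fifth group is the capital run CGTTGCCTAGCAA in the sequence above. RefSeq lists no start of Shank2 within 1 kb of this region. Away from starts, the region with the highest mean (chr7:144316881-144317093), in an intron, had 2.8 in replicate 1 and 1.22 in replicate 2 (mean 2.01 ± 1.12, SD, n = 2).

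Shank3 encodes the Shank protein whose loss is tied to autism in humans. Its highest value was at the sixth group, a coding start 33.3 kb into the gene, in replicate 1 (2.61, with 1.25 in replicate 2), and at the first group in replicate 2 (2, with 2.12 in replicate 1). The mean of the highest values was 2.31 ± 0.429 (SD, n = 2). The libraries thus led with different TSS groups of this gene. The stronger region at the first group (chr15:89498681-89498920) held no start of Shank3, its middle lying 822 bp before the nearest. With a window of 500 bp, the highest value was 2.61 in replicate 1 and 1.6 in replicate 2. The fifth group, the start of a noncoding transcript, had 1.07 and 1.6. Groups 3 and 4, 24.1 kb and 24.7 kb into the gene, had no peak and no base under an FDR of 0.05 in either library. Their 1 kb windows hold 120 and 90 CpG dinucleotides and 74.7% and 68.5% G and C, beside 123 and 77.7% in the first group, which had peaks in both libraries. Group 3 was thus near the first group in CpG count, and group 4 lower. Of the 2 shared regions at the first group, the stronger lies outside its 1 kb window. The weaker (chr15:89499901-89500160), with 0.787 and 1.21, reaches into that window. The 1 shared region of Shank3 away from starts (chr15:89548925-89549179), in an exon, had 0.743 and 1.17, replicate 2 higher.

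Shank1 encodes the Shank protein of mature spines. Its highest TSS value was at the fifth group, the start of a transcript with a retained intron, with 2.79 in replicate 1 and 1.82 in replicate 2 (mean 2.3 ± 0.686, SD, n = 2). The middle of that peak (chr7:44351341-44351560) lay 689 bp inside the start, so a window of 500 bp does not reach it. Its sequence carries the footprint run ATGGCTCCCCCTCCTGGCCAGAG of both libraries.
Shank1: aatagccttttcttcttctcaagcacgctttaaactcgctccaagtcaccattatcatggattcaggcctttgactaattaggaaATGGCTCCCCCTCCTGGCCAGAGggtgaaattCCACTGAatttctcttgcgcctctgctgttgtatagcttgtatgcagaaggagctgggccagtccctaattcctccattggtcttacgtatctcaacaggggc
The coding starts, in the first and second groups, had 1.07 and 1.26, and 1.93 and 1.06. The third group, noncoding and with 93 CpG dinucleotides per kb, had 1.56 in replicate 1 and no peak in replicate 2. The coding starts of Shank1 were therefore weaker than its noncoding internal site in both libraries.

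The strongest sites of Shank1 lay outside its start sites. A region in the last exon (chr7:44360041-44360340), wholly within the 3′ untranslated part and overlapping the gene 1700008O03Rik, had 6.36 in replicate 1 and 5.69 in replicate 2 (mean 6.02 ± 0.476, SD, n = 2). It exceeded 99.7% of the shared regions away from starts and held 29 CpG dinucleotides, with 4 footprints in each library, of which 2 overlapped. A region before the gene (chr7:44304821-44305600), within the neighbouring gene Clec11a, had 6.61 and 5.05 (mean 5.83 ± 1.1, SD, n = 2), 42 CpG dinucleotides, and 11 and 4 footprints. Each of the 2 sites was more than double the highest TSS value of Shank1 in both libraries. Which gene either site serves was not tested.

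**Figure D2:**
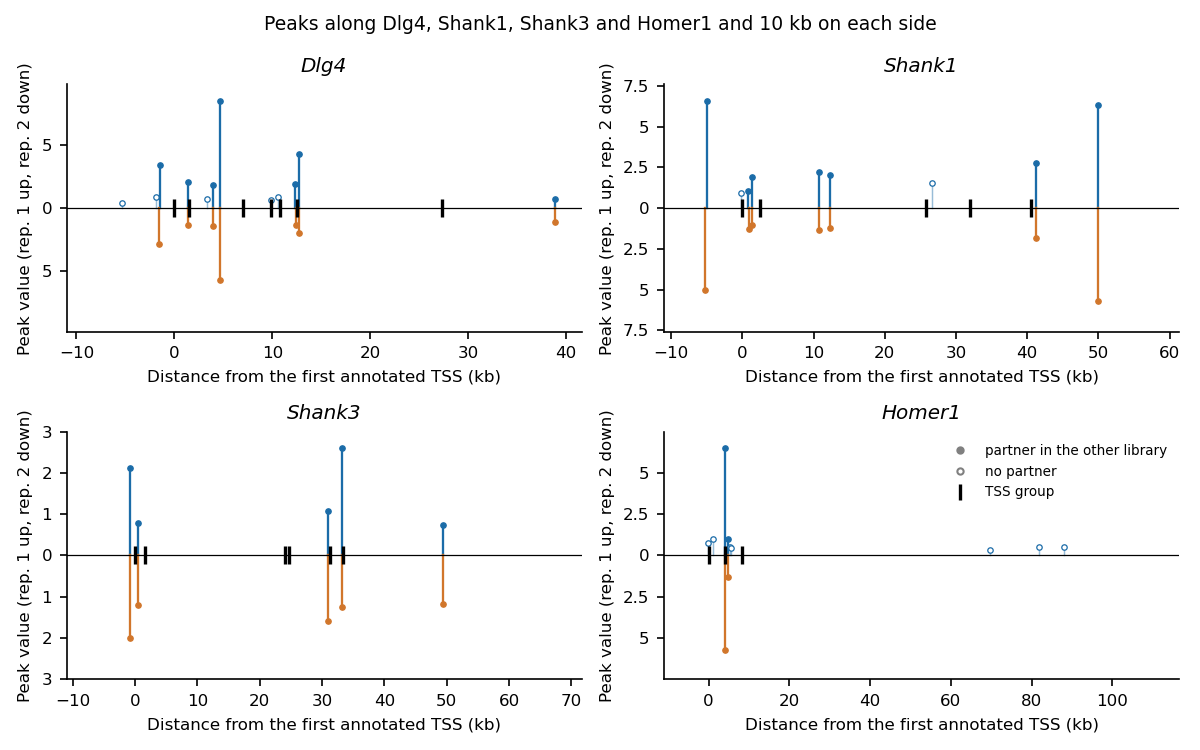
Peaks along Dlg4, Shank1, Shank3 and Homer1, by distance from the first annotated start (kb), with the peak value up for replicate 1 and down for replicate 2; filled circles have a partner in the other library, open circles do not, and black ticks are TSS groups. The tallest peak of Dlg4 (8.52 and 5.72) and the 2 tallest of Shank1 (6.61 and 5.05, 6.36 and 5.69) lie away from ticks, while that of Homer1 (6.5 and 5.71) lies on one.

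Homer1 encodes the Homer protein best known for its short form, Homer1a, which neuronal activity induces. The second TSS group, which starts 10 coding transcripts, had 6.5 in replicate 1 and 5.71 in replicate 2 (mean 6.1 ± 0.561, SD, n = 2), above 83.7% of accessible genes. Both libraries were high there, and of the other genes only Dlg2 had a higher TSS value in replicate 2. Within 1 kb of this group lay 14 footprints in replicate 1 and 5 in replicate 2. The 1 kb window holds 103 CpG dinucleotides. The printed 196 bases hold TGACG, the core of the cyclic AMP response element, at positions 141, 157 and 183 from the 5′ end, and 4 of the 5 bases of the first lie in a footprint of both libraries. The first group, noncoding, had 1.01 in replicate 1 and no peak in replicate 2, and the third, coding, had none. No other region of Homer1 was shared by the libraries: its 2 shared regions both lie at the second group.

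Homer3 and Homer2 encode long Homer proteins with a coiled coil. The first TSS group of Homer3 had 2.4 in replicate 1 and 2.08 in replicate 2 (mean 2.24 ± 0.221, SD, n = 2), with 6 and 4 footprints, and its other 4 groups had no peak. Homer2 had 1 weak TSS peak, 0.76 in replicate 1, at its second group, and none in replicate 2. Away from starts, the region with the highest mean was intronic in Homer2 (chr7:81654121-81654440), with 1.13 and 0.733. In Homer3 it lay before the gene, within Sugp2 (chr8:70278281-70278540), with 1.09 and 1.42. The second group of Homer2 starts 2 coding transcripts and holds 115 CpG dinucleotides per kb, more than the second group of Homer1. Across the Homer family, CpG-rich coding starts were thus found both at the top and at the bottom of the members' order.

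Peak density over gene body and flanks ran differently from the values at start sites. In all, the 10 gene regions held 244 peaks in replicate 1 and 115 in replicate 2, which formed 103 regions shared by both libraries. The median over the members was 4.38 shared regions per 100 kb, against 3.85 over all protein-coding genes. Since density varied with gene length, each gene was set beside the genes of its own length decile. Homer3 had 25.4 peaks per 100 kb in replicate 1, 19 in replicate 2 and 15.9 shared, against a decile median of 6.32. Dlg4 had 23.7, 13.8 and 13.8, above 97.7% of its decile. These 2 genes were the densest in both libraries. Shank1 had 12.8, 9.95 and 9.95, above 95.3% of its decile, and Shank2 had 11.7, 4.75 and 4.52, above 85.2%. Shank3 had 6.2 per 100 kb in either library and shared, above 86%; each of its 5 peaks in 1 library had a partner in the other.

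The remaining genes lay nearer to or below their decile medians. Dlg3 had 9.9 peaks per 100 kb in replicate 1, 5.66 in replicate 2 and 4.24 shared, above 54.1% of its decile. Dlg2 had 6.02, 2.71 and 2.36, above 47.2%, and Dlg1 had 6.91, 2.59 and 2.16, above 41%. Homer1 had 7.17, 1.59 and 1.59, above 17%, and Homer2 had 4.72, 2.36 and 1.57, above 16.7%. Homer1 thus joined the second-strongest TSS peak of the set to 1 of the lowest densities. The counts for Dlg4, Homer3, Shank1 and Dlg1 include regions of other genes: the starts of Acadvl and Asgr1 beside Dlg4, the shared start region of Cope and Ddx49 and a site in Sugp2 beside Homer3, the start of Meltf beside Dlg1, and the Clec11a site beside Shank1. With regions of other genes left out, a reading added after the values were seen, shared density was 9.89 in Dlg4, 9.51 in Homer3, 8.53 in Shank1 and 1.73 in Dlg1.

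**Figure D3:**
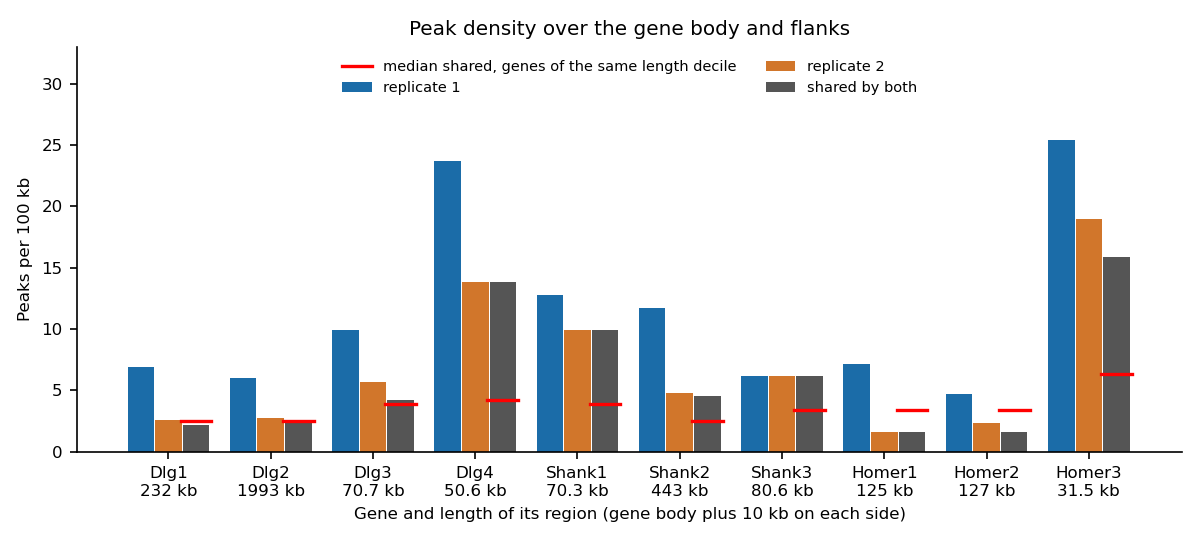
Peaks per 100 kb of gene body plus 10 kb on each side, for replicate 1, replicate 2 and regions shared by both; the red line is the median shared density of genes in the same length decile. Shared density exceeds the line in Dlg3, Dlg4, the 3 Shank genes and Homer3, and Homer1 and Homer2 are farthest below it.

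Along the 1973 kb of Dlg2 and its flanks, shared regions were unevenly spread. The part between coding starts 2 and 3, 621 kb long, held 24 of the 47 shared regions, 3.87 per 100 kb. One more lay in the upstream flank. The other parts of the gene held 1.63 per 100 kb between coding starts 1 and 2, 1.14 between 3 and 4, and 2.07 from start 4 to the gene end. In replicate 1 alone, the densities of these 4 parts were 5.05, 6.93, 6.27 and 5.43 in gene order, and in replicate 2 they were 1.95, 4.35, 1.42 and 2.33. The part between coding starts 2 and 3 was the densest in both libraries, by a wider margin in replicate 2. The intronic region of Dlg2 with the highest mean (chr7:91412181-91412440), in that part, had 2.66 in replicate 1 and 1.19 in replicate 2 (mean 1.92 ± 1.04, SD, n = 2). It led in replicate 1 alone: in replicate 2 the highest intronic value of Dlg2 was 1.58 (chr7:92102981-92103180, with 1.96 in replicate 1). The region with the highest mean had 3 footprints in replicate 1 and 0 in replicate 2. Shank2 was densest between its coding starts 3 and 4, with 7.35 shared regions per 100 kb, and had 4.16 before and 3.57 after that part. Its first 29.3 kb, between the first and second coding starts, held no peak in either library.

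**Figure D4:**
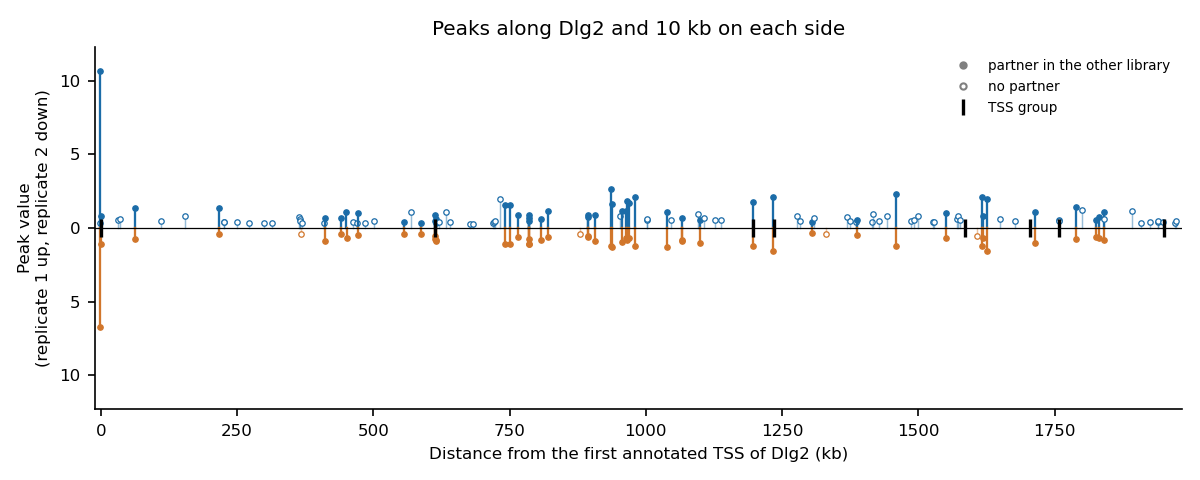
Peaks along Dlg2, by distance from its first annotated start (kb), with the peak value up for replicate 1 and down for replicate 2; filled circles have a partner in the other library, open circles do not, and black ticks are TSS groups. One peak of 10.7 and 6.75 stands at the start, and no other peak of the gene reaches 3 in either library.

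By GENCODE starts, 26 of the 103 shared regions lay within 1 kb of a start of the gene itself and 4 at a start of another protein-coding gene. A further 3 lay in exons, 64 in introns and 6 in the flanks. Of the intronic regions, 4, in Dlg1, Dlg2 and Shank2, lay within 1 kb of a RefSeq start of the same gene. The 73 regions away from every protein-coding GENCODE start came from 9 of the 10 genes, all but Homer1. Dlg2 held 42 of them and Shank2 16, so pooled values of introns and of regions away from starts describe mainly these 2 genes. Over all protein-coding genes 49.9% had such a region. The 2 shares differ in gene length: the median gene region was 103 kb in the members and 37.4 kb over all protein-coding genes. The median density of such regions was 1.84 per 100 kb over the members, beside medians of 1.51 to 1.83 in length deciles 7 to 10. Median values at own starts were 1.62 in replicate 1 and 1.31 in replicate 2, against 1.11 and 0.841 in introns. The 4 regions at starts of other genes had medians of 2.09 and 1.96. Replicate 1 was the higher library in 70 of the 103 regions, and in 39341 of the 58484 shared regions of the series. A partner in replicate 2 was found for 44.7% of the replicate 1 peaks (95% Wilson interval 38.6% to 50.9%, n = 244), near the 46.6% of the series. For replicate 2 peaks the share with a partner in replicate 1 was 92.2% (85.8% to 95.8%, n = 115), above the 83.4% of the series. Peaks of replicate 1 without a partner were weaker, with a median of 0.539 against 1.11. By place, 63.8% of replicate 1 peaks at own starts and 37.9% of those in introns had a partner.

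**Figure D5:**
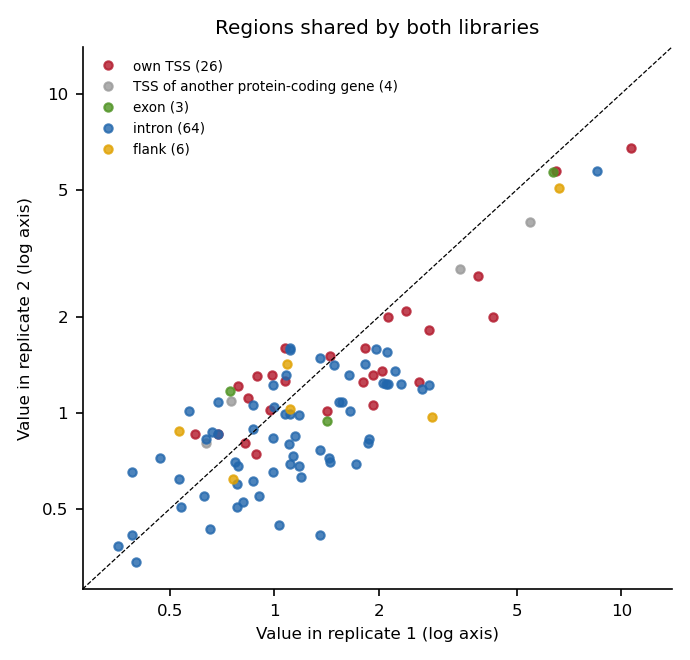
Value in replicate 1 (horizontal, log axis) and in replicate 2 (vertical, log axis) for the 103 regions shared by both libraries, coloured by place; the dashed line marks equal values. Most regions (70) lie below the line, with replicate 1 higher, and the intronic Dlg4 region (8.52 and 5.72) and the exonic and flanking Shank1 regions lie among the strongest own-TSS regions.

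Footprints were found in 75% of the replicate 1 peaks and 70.4% of the replicate 2 peaks of the 10 genes, near the 72.9% and 69.9% of the series. Of the 103 shared regions, 75 held a footprint in each library, and in 55 of them footprints of the 2 libraries overlapped. Dlg2 had 200 footprints in replicate 1 and 89 in replicate 2, of which 35 overlapped. Dlg4 had 24, 16 and 12, Shank1 had 37, 17 and 11, and Shank2 had 96, 28 and 14. Shank3 had 12 in each library with 6 overlapping, and Homer3 had 15, 13 and 9. Homer1 had 18, 5 and 3, Dlg1 had 28, 9 and 1, Homer2 had 11, 2 and 1, and Dlg3 had 8, 2 and 0. As a share of the replicate 1 footprints, overlap was thus greatest in Homer3, Dlg4 and Shank3, and least in Homer2, Dlg1 and Dlg3.

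Short sequence motifs were counted in windows of 300 bp around the middle of each shared region, on both strands, beside all shared regions of the series at the same kind of place. At own starts the GC box GGGCGG was present in 10 of 26 regions, 38.5%, against 59.2% of the 19288 TSS regions of the series. The core TGACG was present in 6 (23.1% against 29.4%), and its full palindrome TGACGTCA, which contains it, in 1, at Dlg4. A loose MEF2-type pattern, CTA and TAG with any 4 bases between them, was present in 4 (15.4% against 2.55%). MEF2 is a factor family active in neurons and muscle, and a match to this loose pattern need not be a MEF2 site. The E-box CAGCTG was present in 9 (34.6% against 18%) and the AP-1 consensus TGANTCA in 4 (15.4% against 4.74%). The NRF1-type consensus was present in 0, against 11.6% of TSS regions. Away from starts, the E-box CAGATG, preferred by proneural factors, was the commonest of those searched, in 31 of 73 regions, 42.5%, against 38% of 39196 regions. TGANTCA was present in 13 of these (17.8% against 13.4%). The MEF2-type pattern was present in 2 of them (2.74% against 4.26%), below the series here. Most of the 73 regions lie in Dlg2 and Shank2. A match is a string of letters in a window and shows no binding.

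The partner list holds 32 other genes of the postsynaptic density, such as the Dlgap adaptors and the Lin7 and Magi scaffolds. Of these, 30 had a peak within 1 kb of a start in both libraries, 93.8%, beside the same background of 60.3%. The exceptions were Dlgap3, a Dlg-binding adaptor of the striatum, with 1.07 in replicate 1 and no peak in replicate 2, and Iqsec2, an Arf exchange factor, with no peak in either. The partners were not counted per TSS group, so the part that their number of starts plays in this share was not tested. Their median gene region was 151 kb, against 37.4 kb over all protein-coding genes. The median of their mean highest TSS value was 2.51, beside 2.3 for the scaffold genes. Their median shared density was 3.8 per 100 kb, beside 4.38. The highest TSS values among partners were those of Baiap2, a Shank-binding actin regulator (mean 6.8 ± 2.09, SD, n = 2), Magi3 (6.62 ± 2) and Pick1 (5.75 ± 2.6). All 3 lay near Homer1 and below the Dlg2 peak that is shared with Tmem126b. The densest partners were Lin7b with 17.6 and Mpp2 with 17.5 shared regions per 100 kb.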

How the data were processed

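Per the labels, DNase-seq libraries of 2 replicates of 1 group were deposited on mm10 (GRCm38). Aligner and callers are not given in the sources used. The authors listed peaks per library, each with a signal value; tested on the files, values below 1 were whole multiples of 1 step per library (100% within 0.05 steps), so the signal is scaled to the library. The longer peak list of each library was used. In the deposited footprint lists the value was 0.01 on every line, read as a q-value threshold. The deposited base lists hold FDR q-values under 0.05.

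The members and the partner, marker and motif lists were chosen with earlier results of these data known. A TSS group joins starts within 500 bp of any GENCODE M21 transcript; a peak within 1 kb counts for it. A shared region is a merged stretch with a peak of each library, overlapping by at least 1 bp. A gene region is the gene plus 10 kb on each side. Sequence, and further starts, came from RefSeq GRCm38.p6. mm10 is the C57BL/6J genome, so CAST/EiJ reads of the hybrid could align less well; this was not tested. All members were named with their strongest shared region at a start and away from starts; partners were named by the 3 highest TSS values, the highest shared densities and the absence of a peak in both libraries. Other features, such as the Shank1 site in Clec11a, were chosen after their values were seen. Shares carry 95% Wilson intervals. No test was made. Counting of overlaps and of TSS windows was tested on simulated peaks with known answers. Alternatives were the shorter lists, equal numbers of peaks, windows of 500 bp and 2.5 kb, coding starts only, flanks of 0 and 50 kb, a reciprocal overlap of 50%, and each replicate left out. Python 3.11.15 was used with NumPy, SciPy and pysam.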

Additional observations from a re-analysis of the deposited data

How the results depend on the processing

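No paired analysis was possible because the series has 1 group. The count of members with an accessible start in both libraries was 8 with the shorter lists, where 54.3% of all protein-coding genes had one, and 8 with windows of 500 bp (58.6%); Shank1 was the member lost both times. It was 9 with equal numbers of peaks, windows of 2.5 kb and coding starts only, and 9 to 10 with a replicate left out. TSS groups with a peak in both libraries numbered 13 with the shorter lists, and 20 to 28 with a replicate left out. Shared regions numbered 48 with the shorter lists, and 115 to 244 when the peaks of 1 library alone were counted. The median shared density was 1.93 per 100 kb with the shorter lists and 5.2 to 8.54 with a replicate left out. The share of replicate 1 peaks with a partner was 34.5% with the shorter lists, 66% with equal numbers of peaks and 35.2% at a reciprocal overlap of 50%. Footprints in the 10 gene regions averaged 321 per library, and 92 overlapped between libraries. The shorter lists hold fewer peaks, which by construction lowers counts. The partner count ranged from 27 to 31 over its alternatives. Densities of single genes moved by no more than the spread between libraries in 53 cases and by more in 17. That spread is the SD of the libraries' own peak densities, not of shared density. In Homer2 it was 1.67 against a shared density of 1.57, so a fall to 0 with the shorter lists counted as unmoved. It also exceeded shared density in Homer1 (3.94 against 1.59), Dlg1 (3.05 against 2.16) and Shank2 (4.95 against 4.52). In Shank3 it was 0, so any change counted as moved. The 53 cases thus do not show stable densities. With 2 libraries, the spread is known from 1 difference, and peaks under the listing threshold of the weaker library count as absent.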

Other observations

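The short RFX-type motif GTTGCC was searched after the values were seen. It was present on either strand in 10 of the 26 windows of 300 bp at the members' own starts, 38.5%, against 13.7% of the 19288 TSS regions of the series. Those windows belonged to Dlg1, Dlg3, Dlg4, Homer3, Shank1, Shank2 and Shank3. Away from starts it was present in 10 of 73 windows, 13.7%, against 14.8% of 39196. In the printed Shank2 and Shank3 sequences the motif lies wholly within a footprint of both libraries, and in the printed Dlg4 intron it lies outside. The CTCF-type core was present in 4 of the 26 windows at own starts (15.4% against 7.96%) and in 7 of the 73 away from starts (9.59% against 9.71%). Since GTTGCC was chosen from these sequences and some windows overlap, the counts are a description.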
